A study of Homo sapiens with 39 samples.

Results

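The genes described here lie side by side on the long arm of chromosome 13, from PIBF1 to TGDS in RefSeq order. They were taken by position, and the stretch was chosen by its log2 fold changes in CHP-134 cells, where many of its genes were higher in both TRIM37 mutant clones than in the wild type libraries those clones share. By symbol, 62 of the 23710 genes in each of the authors' deposited tables are members, 54 by their current symbol and 8 by an older one. They comprise 26 protein-coding genes, 20 long non-coding RNAs and 10 microRNA genes, and the rest are pseudogenes. Of these, 22 had a usable value in the clone 1 table and 23 in the clone 2 table, against 19 in each of the RPE1 tables. A mean count of at most 10 in all 5 tables left 39 members without a usable value, and 25 of those are listed at a mean count of 0 throughout.

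The series altered the dose of TRIM37, a ubiquitin ligase, in human cell lines and measured RNA by sequencing. CHP-134 is a neuroblastoma line, and its 2 mutant clones carry a partial TRIM37 knockout, with 3 libraries of clone 1 and 3 of clone 2 against 3 of wild type. hTERT-RPE1 cells are immortalised cells of the retinal pigment epithelium, with 9 libraries of a TRIM37 knockout against 9 of wild type. The sample titles number the wild type libraries as 3 sets of 3 and the knockout libraries from 1 to 9. What a set shares is not stated, so its libraries may not be independent. RPE1 clones 4 and 5 carry an inducible TetOn-TRIM37 construct, with 3 libraries per clone given doxycycline at 1 µM for 24 h against 3 untreated libraries of the same clone. All CHP-134 and knockout groups were untreated, each CHP-134 mutant group is a single clone, and no clone is named for the RPE1 knockout. With 1 clone per CHP-134 mutant group, what the clone carries and what TRIM37 does cannot be told apart. Whether the knockout is 1 clone is not stated, so the same limit may hold there. The TetOn comparisons stay within a clone, but no group without the construct was given doxycycline. The drug and raised TRIM37 cannot be told apart in them.

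The tables give 1 comparison each and hold no value per library, so neither the depth of a library nor the spread within a group can be given. Every log2 fold change, standard error (SE) and q value of a gene below is the authors', and a gene is called at a q under 0.05. No source used here says that the libraries of a group were separate cultures, so the q values may rest on technical spread alone. The targeted gene, TRIM37, was at -1.66 (SE 0.034) in clone 1, -1.75 (SE 0.042) in clone 2, -1.95 (SE 0.046) in the knockout, 3.19 (SE 0.044) with doxycycline in TetOn clone 4 and 2.64 (SE 0.042) in clone 5, as log2 fold changes, per the authors' deposited tables. Which group is the numerator is not stated in a header, so the sign of TRIM37 set the direction of every table. Among 12 neuroblastoma markers, 10 had a mean count above 10 in both CHP-134 tables, MYCN among them, while TH and DBH did not. In the RPE1 tables KRT8, KRT18, MITF and OTX2 were above 10, whereas the mature pigment epithelium genes RPE65, BEST1, RLBP1 and TYR were not, and PMEL was above 10 in the knockout and TetOn clone 5 tables. Neither marker set was confined to its line, since MITF, OTX2 and BEST1 were above 10 in both CHP-134 tables and HAND2 and GATA2, of the neuroblastoma list, in all RPE1 tables.

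Position, not function, joins these genes. The stretch holds SPRY2, a feedback inhibitor of receptor tyrosine kinase signalling through ERK, the Krüppel-like transcription factor genes KLF5 and KLF12, and several genes of the ubiquitin system. It also holds neuronal membrane protein genes of the SLITRK family, the heparan sulfate proteoglycan genes GPC5 and GPC6, and MIR17HG, the host transcript of a microRNA cluster that MYC proteins are known to induce. Mature microRNAs are cut from such a host transcript and pair with target mRNAs through a short seed.

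Promoter sequence was examined because the members moved together in CHP-134. RefSeq windows on GRCh38.p14 (250 bases before to 50 after a start) were found for 19 of the 23 members usable in at least 1 table, 34 windows in all. The GC box GGGCGG was on either strand of 16 member windows (47.1%), against 45.0% of all 35116 windows. The TATA box TATAAA was in 4 (11.8%), against 11.5% of all windows, and the E-box CACGTG and the cAMP response element TGACGTCA were in 0, against 7.26% and 1.85% of all windows. Median GC content was 57.2% in member windows and 58.7% in all windows. With 34 windows, no difference from promoters at large was tested.

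The 250 bases before the start are shown for SPRY2, which had the highest log2 fold change of the members usable in both clones, for KCTD12, which was called up in both clones, and for MIR17HG, which was not higher in either clone. Capitals mark GGGCGG on either strand, and each sequence reads 5′ to 3′ on the strand of its gene. The windows are chr13:80341127-80341376 on the minus strand for SPRY2, chr13:76886406-76886655 on the minus strand for KCTD12 and chr13:91347437-91347686 on the plus strand for MIR17HG.
SPRY2: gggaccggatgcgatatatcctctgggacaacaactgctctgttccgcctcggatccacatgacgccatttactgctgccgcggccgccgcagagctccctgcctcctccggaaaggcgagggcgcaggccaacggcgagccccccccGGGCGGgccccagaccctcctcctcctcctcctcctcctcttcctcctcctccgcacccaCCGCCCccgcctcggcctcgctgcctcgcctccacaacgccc
KCTD12: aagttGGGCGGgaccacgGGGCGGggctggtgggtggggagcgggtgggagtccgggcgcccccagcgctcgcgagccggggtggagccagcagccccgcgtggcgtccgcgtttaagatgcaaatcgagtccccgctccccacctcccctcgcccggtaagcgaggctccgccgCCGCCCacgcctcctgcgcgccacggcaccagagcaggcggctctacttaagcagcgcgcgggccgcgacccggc
MIR17HG: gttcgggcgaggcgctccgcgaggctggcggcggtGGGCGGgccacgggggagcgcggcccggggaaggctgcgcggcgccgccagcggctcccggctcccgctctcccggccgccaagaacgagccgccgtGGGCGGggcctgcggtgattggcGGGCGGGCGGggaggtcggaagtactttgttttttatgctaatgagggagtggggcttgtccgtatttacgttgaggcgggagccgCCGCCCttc
The box occurs 2 times before SPRY2, 3 times before KCTD12 and 5 times before MIR17HG, so it is found before members that were higher and before one that was not.

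Both COMMD6 with UCHL3 and RBM26 with RBM26-AS1 start head to head, and the bases between their RefSeq starts are shown because each pair shares this short interval. They lie at chr13:75549440-75549501 and chr13:79406256-79406308, are written 5′ to 3′ on the plus strand, and measure 62 and 53 bases.
COMMD6 and UCHL3: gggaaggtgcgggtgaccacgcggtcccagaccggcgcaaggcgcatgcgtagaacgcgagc
RBM26 and RBM26-AS1: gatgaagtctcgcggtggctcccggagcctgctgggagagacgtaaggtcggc
Neither interval holds the GC box.

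In the CHP-134 mutant clones most of the usable members were higher than in wild type, and those below wild type lay toward the ends of the stretch. Clone 1 had 16 members called up and 1 down of 22 per the authors' deposited table, where 9.60% of all usable genes were called up and 9.07% down. Over the same 22 members, clone 2 had 13 called up and 4 down per the authors' deposited table, where 22.0% of all usable genes were called up and 24.2% down. SLITRK6, usable in clone 2 only, brings that count to 14 up of 23. The median log2 fold change of the 22 was 0.59 in clone 1, or 1.51-fold, and 0.47 in clone 2, or 1.38-fold, against -0.0068 and -0.012 over all usable genes, and with SLITRK6 the clone 2 median was 0.495. These contrasts chose the members, so the counts describe them and test nothing. In clone 2 none of the calls held when the statistic was rescaled to the central spread of all genes. On that statistic 0 of 23 members were called, beside 2.00% of all usable genes. At an unadjusted p under 0.05 it gave 6 members, all up, beside 8.15% of all usable genes.

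Of the 22 members usable in both CHP-134 tables, 13 were called up in both clones, 3 in clone 1 without a call in clone 2, and 0 were called down in both. Over all genes usable in both tables, 4.94% were called up in both clones, which share their wild type libraries. Read along the chromosome, the 16 usable members from KLF12 to SPRY2 all had a positive log2 fold change in both clones, and these limits were chosen after the values were seen. Their median was 0.66 in clone 1, or 1.58-fold, and 0.55 in clone 2, or 1.46-fold. The range was 0.35 to 1.05 in clone 1 and 0.034 to 1.53 in clone 2, so the values were spread more widely in clone 2 than in clone 1.

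**Figure D1:**
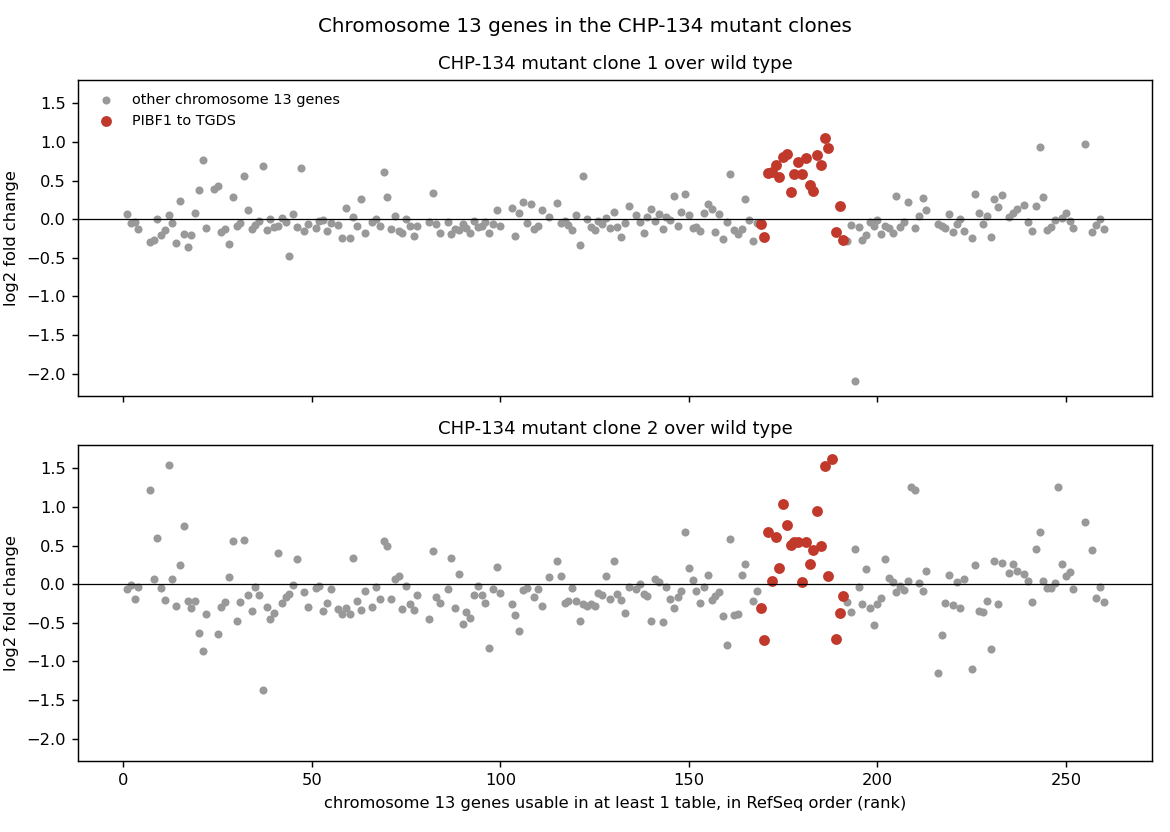
The log2 fold change (y axis) of each usable chromosome 13 gene is plotted in RefSeq order (x axis, rank) for CHP-134 mutant clone 1 over wild type (upper panel) and clone 2 over wild type (lower panel), with the members from PIBF1 to TGDS in red and other genes in grey. The red points rise above the line at 0 as a group, with a median of 0.59 in clone 1 and, SLITRK6 included, 0.495 in clone 2, while most points at both ends of the red run lie below it, GPC6 at 0.17 in clone 1 excepted.

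Over the rest of the chromosome the medians lay near or below 0. The median over usable genes before PIBF1 was -0.051 in clone 1 (154 genes, 6 called up and 17 down) and -0.15 in clone 2 (150 genes, 14 up and 65 down) on the log2 scale. After TGDS it was -0.039 in clone 1 (59 genes, 5 up and 7 down) and 0.012 in clone 2 (61 genes, 15 up and 19 down). A log2 fold change above 0.4 in both clones was found for 10 of the 22 members, against 3 of 150 genes before PIBF1 and 2 of 59 after TGDS. The 0.4 line was not set in advance. The stretch was chosen on these fold changes, so its contrast with the rest of the chromosome describes it and tests nothing.

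At the ends, the nearest genes outside the stretch with a usable value in both clones were mostly at or below 0, as the members beside them were. DIS3, a catalytic subunit of the RNA exosome and the nearest usable gene before PIBF1, was at -0.049 (SE 0.048) in clone 1 and -0.082 (SE 0.075) in clone 2 per the authors' deposited tables. BORA, an activator of Aurora A, was at -0.28 (SE 0.080) in clone 1 and -0.21 (SE 0.074) in clone 2 per the authors' deposited tables. PCDH9, PCDH20 and TDRD3 completed the 5 nearest that were usable in both CHP-134 tables, with values between -0.19 and 0.27 in clone 1 and between -0.38 and 0.26 in clone 2 per the authors' deposited tables. PIBF1, which encodes a centriolar satellite protein, was at -0.063 (SE 0.071, q = 0.596) in clone 1 and -0.31 (SE 0.11, q = 0.0141) in clone 2 per the authors' deposited tables. TGDS, a sugar nucleotide dehydratase gene at the other end, was at -0.27 (SE 0.10, q = 0.0465) in clone 1 and -0.15 (SE 0.094, q = 0.17) in clone 2 per the authors' deposited tables. Beyond it, GPR180, ABCC4, DZIP1 and DNAJC3 were all below 0 in both clones, from -0.28 to -0.081 in clone 1 and from -0.36 to -0.035 in clone 2 per the authors' deposited tables. CLDN10, a tight junction gene with a low mean count of 19.6 in the clone 1 table and 47.3 in the clone 2 table, stood apart at -2.10 (SE 0.28) in clone 1 and 0.46 (SE 0.22) in clone 2 per the authors' deposited tables. PIBF1 and TGDS thus had negative values in both clones, unlike the members from KLF12 to SPRY2.

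SPRY2 came highest of the members usable in both clones. Its log2 fold change was 1.05 (SE 0.16, q = 3.87e-09, mean count 105) in clone 1 and 1.53 (SE 0.16, q = 8.61e-21, mean count 141) in clone 2 per the authors' deposited tables. These are 2.07-fold and 2.89-fold, above the 1.58-fold and 1.46-fold medians of the run it ends. SLITRK6, whose product promotes neurite growth, was higher still in clone 2, at 1.62 (SE 0.32, mean count 22.1), but with a mean count of 8.94 it had no usable value in the clone 1 table of the authors' deposited tables. A gene this low can pass the count limit through the group in which it is high, so SLITRK6 is left out of the counts over 22 members.

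The genes of the ubiquitin system were called up in clone 1 and, with 1 exception, in clone 2. MYCBP2, a very large ubiquitin ligase with a role in axon development, was at 0.74 (SE 0.058, q = 9.61e-35) in clone 1 and 0.55 (SE 0.080, q = 9.19e-11) in clone 2 per the authors' deposited tables. NDFIP2, an adaptor of NEDD4-family ligases, was at 0.70 (SE 0.072) in clone 1 and 0.495 (SE 0.089) in clone 2 per the authors' deposited tables. RNF219, also called OBI1, a ligase linked to the firing of replication origins, had smaller values of 0.45 (SE 0.067) in clone 1 and 0.26 (SE 0.083) in clone 2 per the authors' deposited tables. The exception was UCHL3, a deubiquitinase gene, at 0.55 (SE 0.094) in clone 1 and 0.22 (SE 0.10, q = 0.0651) in clone 2 per the authors' deposited tables.

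UCHL3 shares its start region with COMMD6, whose product belongs to an endosomal sorting complex. COMMD6 was at 0.70 (SE 0.081) in clone 1 and 0.62 (SE 0.083, q = 2.46e-12) in clone 2 per the authors' deposited tables, so only COMMD6 of this pair was called in clone 2. The other head-to-head pair was called in both clones. RBM26, which encodes an RNA-binding protein, was at 0.37 (SE 0.063) in clone 1 and 0.44 (SE 0.074) in clone 2, and RBM26-AS1 at 0.83 (SE 0.21) in clone 1 and 0.95 (SE 0.22) in clone 2 per the authors' deposited tables. RBM26-AS1 rested on low mean counts of 40.9 and 44.7 in these tables, and whether the counting used strand is not given in the sources used here. In RefSeq, LMO7, UCHL3, MYCBP2, SCEL, RNF219, NDFIP2 and GPC6 overlap an antisense gene, so reads of these partners may not be separated.

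The Krüppel-like factor genes of the stretch differed from each other. KLF12, the first of the run and a transcriptional repressor gene, was at 0.60 (SE 0.12, q = 2.7e-05) in clone 1 and 0.68 (SE 0.094, q = 1.01e-11) in clone 2 per the authors' deposited tables. KLF5, its neighbour toward PIBF1, was at -0.23 (SE 0.25, q = 0.573) in clone 1 and -0.73 (SE 0.27, q = 0.017) in clone 2, on mean counts of 31.4 and 28.7 per the authors' deposited tables. KLF12 was called up in both clones, while KLF5 was not called in clone 1, where its SE exceeded its value. POU4F1, a sensory neuron factor gene, had mean counts of 8.69 and 5.33 per the authors' deposited tables and no usable value.

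LMO7, KCTD12 and SLAIN1, genes of cell junctions, receptors and microtubules, were called up in both clones. LMO7, a LIM-domain gene whose product sits at cell junctions, was at 0.81 (SE 0.11) in clone 1 and 1.04 (SE 0.11, q = 6.15e-20) in clone 2 per the authors' deposited tables. KCTD12, an auxiliary subunit of GABA-B receptors, was at 0.84 (SE 0.080, q = 2.59e-23) in clone 1 and 0.76 (SE 0.096) in clone 2 per the authors' deposited tables. SLAIN1, which encodes a protein of growing microtubule ends, was at 0.80 (SE 0.065) in clone 1 and 0.55 (SE 0.095) in clone 2 per the authors' deposited tables. SCEL, a cornified envelope gene on mean counts of 20.3 and 15.4, was at 0.58 (SE 0.27, q = 0.123) in clone 1 and 0.034 (SE 0.32, q = 0.941) in clone 2 per the authors' deposited tables.

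Several members had a lower value in clone 2 than in clone 1 by over 0.5 on the log2 scale, although no test is given because both contrasts chose the members. TBC1D4, a Rab GTPase-activating protein gene of insulin-stimulated glucose uptake, was at 0.62 (SE 0.073) in clone 1 and 0.036 (SE 0.073, q = 0.709) in clone 2 per the authors' deposited tables, a difference of -0.58 for clone 2 minus clone 1. SLITRK1, the next usable member after SPRY2, was at 0.92 (SE 0.11) in clone 1 and 0.11 (SE 0.12, q = 0.443) in clone 2 per the authors' deposited tables, a difference of -0.81. GPC6, SCEL and MIR17HG differed by -0.55, -0.54 and -0.54 in the same direction, while SPRY2 had the largest difference in the other direction, at 0.48. Across the 22 members usable in both tables, 15 had the higher log2 fold change in clone 1.

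Past SLITRK1, SLITRK6 was the single member called up, and that in clone 2. MIR17HG was at -0.17 (SE 0.15, q = 0.49, mean count 737) in clone 1 and -0.71 (SE 0.13, q = 5.5e-07, mean count 667) in clone 2 per the authors' deposited tables. GPC6 was at 0.17 (SE 0.073, q = 0.0891) in clone 1 and -0.38 (SE 0.076, q = 5.29e-06) in clone 2 per the authors' deposited tables. Both were called down in clone 2, as were PIBF1 and KLF5 at the other end.

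MIR17HG carries 6 microRNA genes of the member list, and their mature sequences are shown to make plain what this host transcript encodes. RefSeq gives them on GRCh38.p14, and capitals mark the seed, bases 2 to 8 from the 5′ end.
hsa-miR-17-5p: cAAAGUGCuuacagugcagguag
hsa-miR-20a-5p: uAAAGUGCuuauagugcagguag
hsa-miR-18a-5p: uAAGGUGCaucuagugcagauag
hsa-miR-19a-3p: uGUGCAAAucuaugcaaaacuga
hsa-miR-19b-3p: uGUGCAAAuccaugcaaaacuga
hsa-miR-92a-3p: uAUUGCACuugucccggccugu
They hold 4 seeds, with miR-17-5p and miR-20a-5p sharing AAAGUGC and miR-19a-3p and miR-19b-3p sharing GUGCAAA. All 6 genes are listed at a mean count of 0 per the authors' deposited tables, so the values speak of the host transcript and not of the mature microRNAs.

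**Figure D2:**
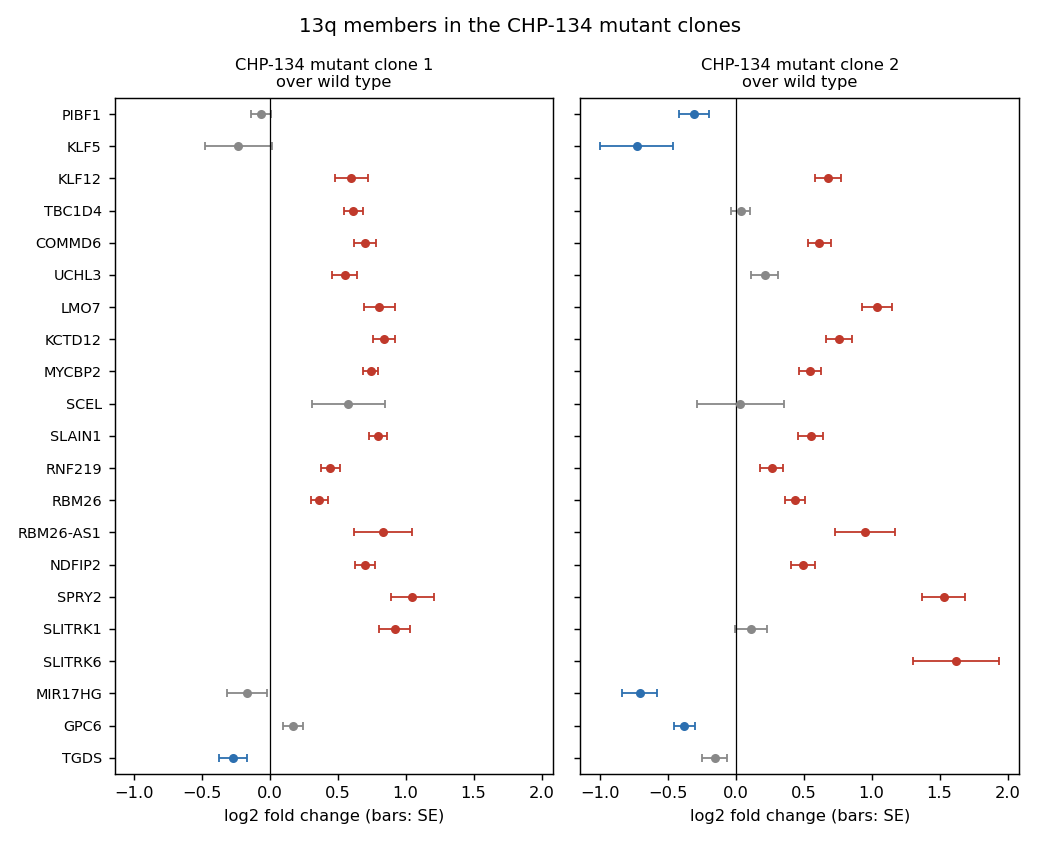
Each row is a member named here and usable in at least 1 CHP-134 table, in chromosome order, with its log2 fold change (x axis) and SE (bar) in mutant clone 1 over wild type (left) and clone 2 over wild type (right). Red points were called up at q under 0.05, blue points were called down and grey points were not called. From KLF12 to SPRY2 all points lie right of 0, up to 1.05 in clone 1 and 1.53 in clone 2 for SPRY2, while PIBF1, KLF5, MIR17HG and TGDS lie left of 0 in both.

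The RPE1 knockout asks whether these genes also differ when TRIM37 is lost in another cell type, in a contrast that did not choose them. They did not move as a block. SPRY2, GPC6, KCTD12, SLAIN1, RNF219 and NDFIP2 rose, and LMO7, KLF12 and UCHL3 were among those that fell. Of these, GPC6, SPRY2 and LMO7 were the 3 still called when the statistic was rescaled to the central spread of all genes. On that statistic 9.71% of all usable genes were called. At the deposited q, 6 were called up and 4 down of 19 usable members per the authors' deposited table, or 52.6%. Over all usable genes, 26.6% were called up, 26.9% down and 53.6% in either direction. The share called is near the background, and the median of -0.016 on the log2 scale stood beside -0.0022 over all usable genes.

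GPC6 and SPRY2 rose most firmly in the knockout. GPC6 was at 0.71 (SE 0.041, q printed as 0, mean count 1340) and SPRY2 at 0.57 (SE 0.042, q = 1.33e-40, mean count 1710) per the authors' deposited table of the knockout. SLAIN1 was at 0.65 (SE 0.20, q = 0.00325) on a mean count of only 50.1, and KCTD12 at 0.44 (SE 0.095, q = 1.7e-05), per the authors' deposited table. RNF219 at 0.14 (SE 0.045, q = 0.0064) and NDFIP2 at 0.091 (SE 0.037, q = 0.0282) rose by little per the authors' deposited table.

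LMO7 fell furthest, to -0.73 (SE 0.026, q printed as 0) on a mean count of 21800 per the authors' deposited table of the knockout. KLF12 was at -0.24 (SE 0.046, q = 9.95e-07) and UCHL3 at -0.10 (SE 0.047, q = 0.0476) per the authors' deposited table. KLF12 and LMO7 were called up in both CHP-134 clones, so in the knockout these members had the opposite sign. Among the 19 members usable in the knockout and in clone 1, 5 were called in both with the same sign and 4 with opposite signs, and with clone 2 the numbers were again 5 and 4. Over all genes usable in both tables the shares were 5.72% with the same sign and 4.65% with opposite signs for clone 1, and 14.1% and 11.7% for clone 2. The members' shares, 26.3% and 21.1%, are set by their choice on CHP-134 values, so nothing is read from them.

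Most members not called in the knockout lay close to 0. TBC1D4 (-0.075, q = 0.0581), PIBF1 (-0.082, q = 0.143), RBM26 (-0.052, q = 0.149), KLF5 (-0.036, q = 0.621), TGDS (-0.017, q = 0.88), COMMD6 (-0.016, q = 0.791) and MIR17HG (0.042, q = 0.769) had small log2 fold changes per the authors' deposited table. RBM26-AS1 was at 0.49 with a wide SE of 0.26 (q = 0.108) on a mean count of 23.3 per the authors' deposited table. MYCBP2, called up in both CHP-134 clones, was set aside by the Status Outlier in all 3 RPE1 tables, and its value in the knockout table of the authors' deposited tables was 0.015 (SE 0.093). SLITRK1, with mean counts of 1.88, 0.842 and 0.736 in the knockout, TetOn clone 4 and TetOn clone 5 tables of the authors' deposited tables, was not usable in RPE1, nor was SCEL, listed at 0.

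Doxycycline induction asks the reverse question, what 24 h of doxycycline with raised TRIM37 goes with in RPE1. In this setting 1 member in 1 clone passed the test. In TetOn clone 4, 0 of 19 usable members were called up and 1 down, or 5.26%, where 0.716% of all usable genes were called up, 1.23% down and 1.95% in either direction per the authors' deposited table. The called member was GPC6, at -0.28 (SE 0.070, q = 0.00596) in TetOn clone 4, beside -0.11 (SE 0.068, q = 0.664) in TetOn clone 5 per the authors' deposited tables. In TetOn clone 5, 0 of 19 were called, where 0.795% of all usable genes were called up, 2.17% down and 2.97% in either direction per the authors' deposited table. At an unadjusted p under 0.05, from the log2 fold change over its SE, 4 of 19 members passed in TetOn clone 4 and 1 in TetOn clone 5, where 10.1% and 10.7% of all usable genes did. Among those that passed without adjustment were PIBF1, SPRY2 and GPC6 in TetOn clone 4, and SPRY2 passed in TetOn clone 5. SPRY2 was at -0.13 (SE 0.061, q = 0.397) in TetOn clone 4 and -0.097 (SE 0.048, q = 0.44) in TetOn clone 5 per the authors' deposited tables, and thus was not called in either.

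No difference between the TetOn clones was detectable for a member. The clone difference divided by its SE, adjusted over 11778 genes with the Benjamini-Hochberg method, was called for 26 genes and for 0 of the 19 members. For GPC6 that difference, clone 5 minus clone 4, was 0.17 (SE 0.098, adjusted p = 0.956). The medians were -0.025 in TetOn clone 4 and -0.013 in TetOn clone 5 on the log2 scale, with the members between -0.28 and 0.14 and between -0.19 and 0.084.

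**Figure D3:**
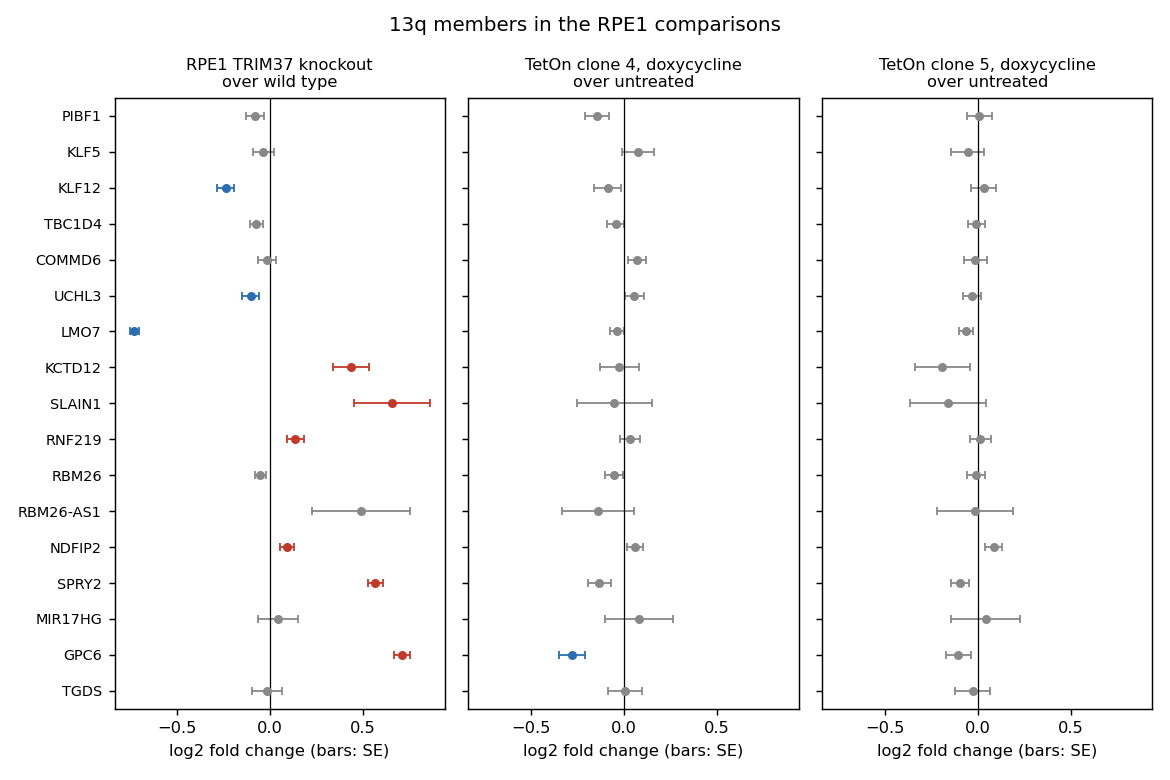
Each row is a member named here and usable in at least 1 RPE1 table, in chromosome order, with its log2 fold change (x axis) and SE (bar) in the TRIM37 knockout over wild type (left), TetOn clone 4 with doxycycline over untreated (middle) and TetOn clone 5 with doxycycline over untreated (right). Red points were called up at q under 0.05, blue points down and grey points not called. The knockout spreads from -0.73 for LMO7 to 0.71 for GPC6, and in the induced clones GPC6 at -0.28 in clone 4 is the single called point.

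Paralogs on other chromosomes show what members of the same gene families did away from the stretch. The list holds 49 genes of the Sprouty, Spred, Krüppel-like, COMMD, glypican, SLITRK and other families and was chosen with earlier results of these data known. Of the usable paralogs, 4 were called up and 3 down of 41 in clone 1 and 8 up and 11 down of 42 in clone 2 per the authors' deposited tables, with medians of 0.014 and -0.076. These shares, 17.1% and 45.2%, are near the 18.7% and 46.2% of all usable genes. The members were chosen on the CHP-134 contrasts, so setting them beside the paralogs there tests nothing. In the knockout 8 were called up and 15 down of 37 (62.2%) per the authors' deposited table, beside 53.6% of all usable genes. By direction these were 21.6% and 40.5%, beside 26.6% up and 26.9% down of all usable genes, a difference that was not tested. In TetOn clone 4, 2 were up and 0 down of 36 (5.56%), beside 1.95% of all usable genes. In TetOn clone 5, 0 were up and 1 down of 36 (2.78%), beside 2.97%, per the authors' deposited tables.

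Paralogs called with the same sign in both CHP-134 clones were KLF16, COMMD10 and RBM27. KLF16 was at 0.28 in clone 1 and 0.40 in clone 2, while COMMD10 was at -0.31 and -0.44 and RBM27 at -0.20 and -0.22 for clone 1 and clone 2 per the authors' deposited tables. COMMD6 and RBM26, the 13q members of the COMMD and RBM families, were higher in both clones. SPRY1 was at -0.070 (q = 0.849) in clone 1 and 0.010 (q = 0.971) in clone 2 per the authors' deposited tables, unlike SPRY2, and SPRY4 had no usable value there. In the knockout SPRY1 at 1.17, SPRY4 at 0.73, SPRED1 at 0.44 and SPRED3 at 0.24 rose beside SPRY2 per the authors' deposited table. SPRY3 at -0.39 (q = 0.0545) and SPRED2 at 0.026 (q = 0.645) were not called there.

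**Figure D4:**
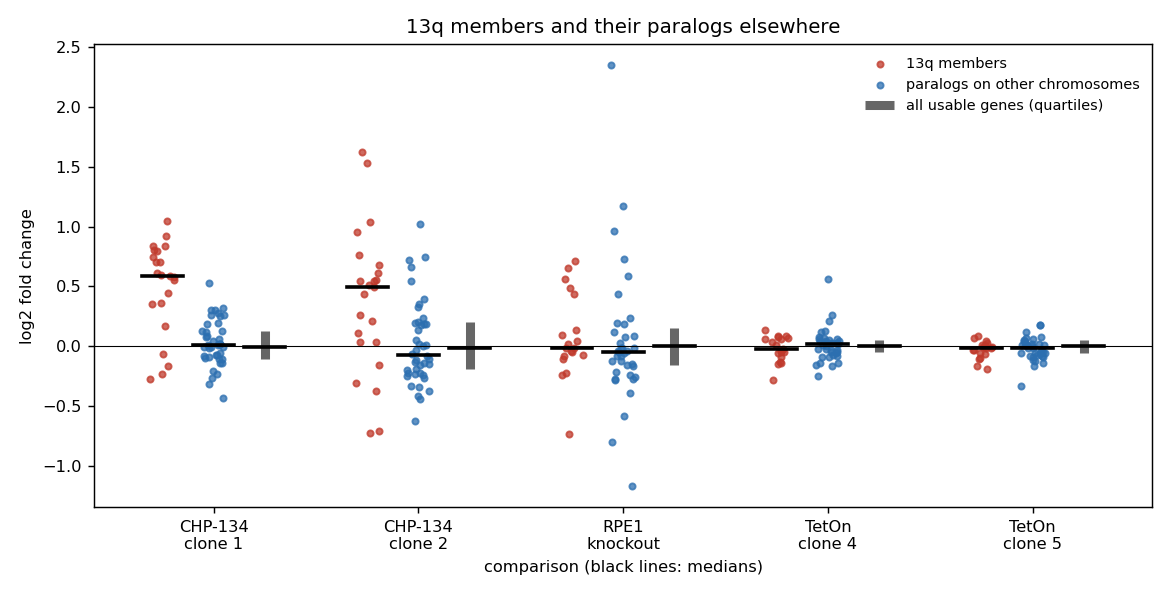
Points give the log2 fold change (y axis) of usable 13q members (red) and of their paralogs on other chromosomes (blue) in each comparison (x axis), black lines are medians and grey bars span the quartiles of all usable genes. Member medians are 0.59 and, SLITRK6 included, 0.495 in the CHP-134 clones, above paralog medians of 0.014 and -0.076. The members were chosen on these CHP-134 contrasts, so this difference describes them and tests nothing. All 3 kinds of median lie near 0 in the RPE1 comparisons.

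Other genes of the pathways in which SPRY2 and EDNRB act were described from a list of 21 ERK feedback, ERK target and endothelin genes, also chosen with earlier results known. Endothelin and its receptors guide neural crest cells, and ERK raises its own inhibitors. Of usable list genes, 6 were called up and 0 down of 13 in clone 1 and 4 up and 1 down of 11 in clone 2 per the authors' deposited tables, with medians of 0.44 and 0.21. The shares called in either direction were 46.2% in clone 1 and 45.5% in clone 2, beside 18.7% and 46.2% of all usable genes. In clone 2 the share in either direction was thus near the background. By direction, 36.4% of the 11 were up and 9.09% down in clone 2, beside 22.0% and 24.2% of all usable genes. This difference was not tested. DUSP4, a MAP kinase phosphatase gene, was at 2.68 in clone 1 and 1.51 in clone 2, the early gene EGR1 at 1.78 and 1.17, and the cyclin D1 gene CCND1 at 0.69 and 0.76 per the authors' deposited tables. These were called up in both clones, as was SPRY2. ECE2, called down in clone 2 at -0.67, was called up in clone 1 at 0.24 per the authors' deposited tables. The list genes ETV1 and PHLDA1 were set aside by the Status Outlier in both clones and are in neither count. ETV1 was at -0.27 in clone 1 and -1.66 in clone 2, and PHLDA1 at 0.18 and -0.90, per the authors' deposited tables.

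In the knockout 12 of 19 usable list genes rose and 5 fell per the authors' deposited table, with a median of 0.44. These are 63.2% up and 26.3% down, or 89.5% in either direction. Over all usable genes 26.6% were called up, 26.9% down and 53.6% in either direction, and the difference was not tested. SPRY1, SPRY4, SPRED1, SPRED2 and EDNRA are on both this list and the paralog list, so they count in both. The ERK phosphatase genes DUSP4 at 1.55 and DUSP6 at 1.33 rose, as SPRY2 did, while the phosphatase gene DUSP5 at -0.16 and EGR1 at -0.61 fell per the authors' deposited table. With doxycycline 0 rose and 2 fell of 19 in TetOn clone 4, and 0 rose and 4 fell of 18 in TetOn clone 5 per the authors' deposited tables, where 1.95% and 2.97% of all usable genes were called. DUSP4 was at -0.19 in both TetOn clones and DUSP6 at -0.22 in TetOn clone 4 and -0.26 in TetOn clone 5, all called, per the authors' deposited tables. DUSP5, ETV4 and ETV5 had positive values between 0.050 and 0.15 in both TetOn clones, and none of them was called, per the authors' deposited tables.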

How the data were processed

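The 39 libraries fall in 9 groups by their titles. STAR and DESeq2 are named in the submitters' processing notes. For their versions, the build, the annotation, strand and counting, the sources used here say nothing. The 5 deposited tables give, per the file headers, for each gene a Status, a mean count (scaling not stated), a log2 fold change with its SE, and a q-value, an adjusted p-value. Status Low marks mean counts of at most 10, Low and Outlier genes have a q of 1, and the remaining genes are called usable. The median SE was 0.0956 for mean counts under 1 and 0.279 for usable genes between 10 and 20 in clone 1; whether the authors shrank fold changes is not stated, and changes of low genes may be understated.

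Computed here, with Python 3.11.15, pandas 2.3.3 and scipy 1.17.1: counts and medians over members, differences, Benjamini-Hochberg adjustment of two-sided normal p-values of log2 fold change over SE (tested on simulated data; it called 2391 genes against 2388 as deposited in clone 1), and promoter motifs. Positions came from RefSeq GRCh38.p14 by symbol for 22648 symbols. Named genes are the members usable in both CHP-134 tables, members called in RPE1, the 5 usable genes beside each end, and listed paralogs and pathway genes called alike in both CHP-134 clones; others named were chosen after their values were seen. Members and lists were chosen with earlier results of these data known. Some genes of the stretch are not reported here by name, and 1 is in no count. Alternatives covered thresholds, filters, Outlier genes, centring and a rescaled null.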

Additional observations from a re-analysis of the deposited data

How the results depend on the processing

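Of 65 recomputed values, 58 stayed within 1.5 times the count, or within the median SE of the members for a median, and no median changed sign. The 13q medians ranged from 0.58 to 0.60 in CHP-134 clone 1 and from 0.47 to 0.51 in clone 2 over 6 alternatives each, also without SPRY2. With a change of at least 1.5-fold required, members called were 11 of 22 in clone 1, all up (3.71% of all usable genes). In clone 2 members called were 9 of 23, with 7 up and 2 down (11.8% of all usable genes). SLITRK6 was among the 7 up, and the 2 down were KLF5 and MIR17HG. The knockout had 3 of 19 called, 2 up and 1 down (12.7%), and TetOn clone 4 had 0 of 19 (0.0658%). With the statistic rescaled to the central spread of all genes, members called were 11 in clone 1 (1.90% of all usable genes). On that statistic they were 0 in clone 2 (2.00%) and 3 in the knockout (9.71%). In clone 2, 6 of 23 members still passed at an unadjusted p under 0.05 on the rescaled statistic, all of them up (8.15% of all usable genes), so the calls in clone 2 rest on the null assumed by the authors. The adjusted counts come from a normal test of each deposited fold change against its SE, or the deposited q; no other tool could be run on these tables. No paired analysis was possible because the tables hold no value per library, and for the same reason no library could be left out.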

Other observations

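Some members below the count limit had sizeable deposited values, named here after these were seen. EDNRB, the endothelin B receptor gene, was at 2.51 (SE 0.40) in the knockout on a mean count of 9.03, just under the limit, in the authors' deposited table. POU4F1 was at -1.37 (SE 0.42) there on a mean count of 4.64 in the authors' deposited table. The pseudogene CTAGE11P was at 0.54 (SE 0.16) with doxycycline in TetOn clone 4 and 0.58 (SE 0.16) in the induced clone 5, on mean counts of 3.08 and 3.41 in the authors' deposited tables. None of these has a usable q.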
